A study of Homo sapiens with 8 samples.

Results

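The apolipoprotein L (APOL) genes are a family of interferon-responsive genes on human chromosome 22. The 5 members described here are APOL1, APOL2, APOL3, APOL4 and APOL6, among 18132 genes on the array. APOL5, a further gene of the family, has 1 probe set that lay in the background range on all 8 arrays, and it is not counted among the members. The members were read by all 23 probe sets that the platform annotation assigns to one of them, out of 49395 on the array: 9 for APOL1, 1 for APOL2, 3 for APOL3, 4 for APOL4, 5 for APOL6 and 1 assigned to APOL1 and APOL2 together.

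The study measured RNA of KBM7, a near-haploid human chronic myeloid leukaemia line, on 8 Affymetrix PrimeView arrays covering 7 conditions. In the IFN-gamma experiment, JAK2 gene-trap mutant cells with IFN-gamma were set against the same mutant cells left unstimulated, and wild-type (WT) cells with IFN-gamma against unstimulated WT replicate 1. In the TNF-alpha experiment, TNFRSF1A gene-trap mutant cells with TNF-alpha were set against the same mutant cells left unstimulated, and WT cells with TNF-alpha against unstimulated WT replicate 2. IFN-gamma was given at 100 ng/ml and TNF-alpha at 10 ng/ml, each for 6 hours. All groups share the leukaemic KBM7 background. A gene trap is an insertion that cuts a transcript short. The labels name 1 mutant line per gene and do not say how many clones it holds, nor whether the WT samples came from separate cultures. Every condition had 1 array apart from unstimulated WT, so differences between arrays are given without a replicate error or p-value.

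Values are log2 intensities. A gene's value is that of its brightest probe set assigned to it alone. A difference of at least 2-fold, 1 on the log2 scale, is called raised or lowered among the 11529 genes whose highest log2 value reached 6. All 5 APOL genes passed that level, APOL2 only through the WT array with IFN-gamma. Across all genes the 2 unstimulated WT arrays differed with an SD of 0.38, which is used here as the spread between arrays. These 2 arrays belong to different experiments, so the SD does not measure the spread within an experiment. Values under the upper quartile of 23 background control probe sets, which lay between 5.76 and 6.04 on the 8 arrays, are treated as being in the background range.

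On all 8 arrays 5 of 7 myeloid progenitor markers (KIT, CD34, CSF3R, CEBPA and MYB) lay above the background range, as did 2 of 3 B cell, 2 of 4 megakaryocyte, 2 of 5 macrophage, 2 of 5 T and NK cell, 1 of 4 endothelial, 1 of 4 hepatocyte, 0 of 3 erythroid and 0 of 4 fibroblast markers. The targeted genes followed the labels. The 3 JAK2 probe sets read 3.61 to 5.32 on the JAK2 mutant arrays and 5.97 to 7.01 on the other 6, and the brightest TNFRSF1A probe set read 6.55 and 6.56 on the TNFRSF1A mutant arrays and at least 9.23 on the other 6. The actin 3'-to-5' signal ratio, a measure of RNA integrity and labelling, was 6.47 and 5.74 in the JAK2 mutant with and without IFN-gamma, against 4.81 and 4.41 in the matching WT arrays. In the TNFRSF1A mutant with and without TNF-alpha it was 5.53 and 4.51, against 4.81 and 3.27 in the matching WT arrays. The same ratio for GAPDH ran from 1.09 in WT replicate 2 to 1.27 in the unstimulated JAK2 mutant. The part of these ratios in the results was not tested.

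APOL1 is the member that is secreted. It travels on high-density lipoprotein and lyses African trypanosomes, and it gives human serum its resistance to them. The other members lack a signal peptide and stay inside the cell, where APOL3 has been described in human cells as a detergent-like protein that attacks the membranes of cytosolic bacteria. Interferon-gamma signals through its receptor and the receptor-bound kinases JAK1 and JAK2. TNF-alpha signals through TNFRSF1A to NF-kappaB.

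In the absence of cytokine, APOL1, APOL3, APOL4 and APOL6 were measured above the background range and APOL2 was not. For APOL3 this rests on 11723975_x_at, whose probes can bind other transcripts too. It read 6.06 in the unstimulated TNFRSF1A mutant, where the top of the background range was 6.01. The other APOL3 probe sets lay in the background range on every unstimulated array. The unstimulated arrays read 7.24 for APOL1 in the JAK2 mutant, 7.24 in the TNFRSF1A mutant, 7.55 in WT replicate 1 and 7.42 in WT replicate 2. APOL4 read 7.80 in the JAK2 mutant, 7.56 in the TNFRSF1A mutant, 8.05 in WT replicate 1 and 7.97 in WT replicate 2. Both genes were lower in the mutants than in the WT arrays, with the widest difference -0.31 for APOL1, in either mutant against WT replicate 1, and -0.49 for APOL4, in the TNFRSF1A mutant against WT replicate 1. Of the 23 probe sets, 11 lay above the background range on all 8 arrays, 4 on none and 8 on some. Levels of different genes are not set against each other here, because probe sets differ in brightness.

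**Figure D1:**
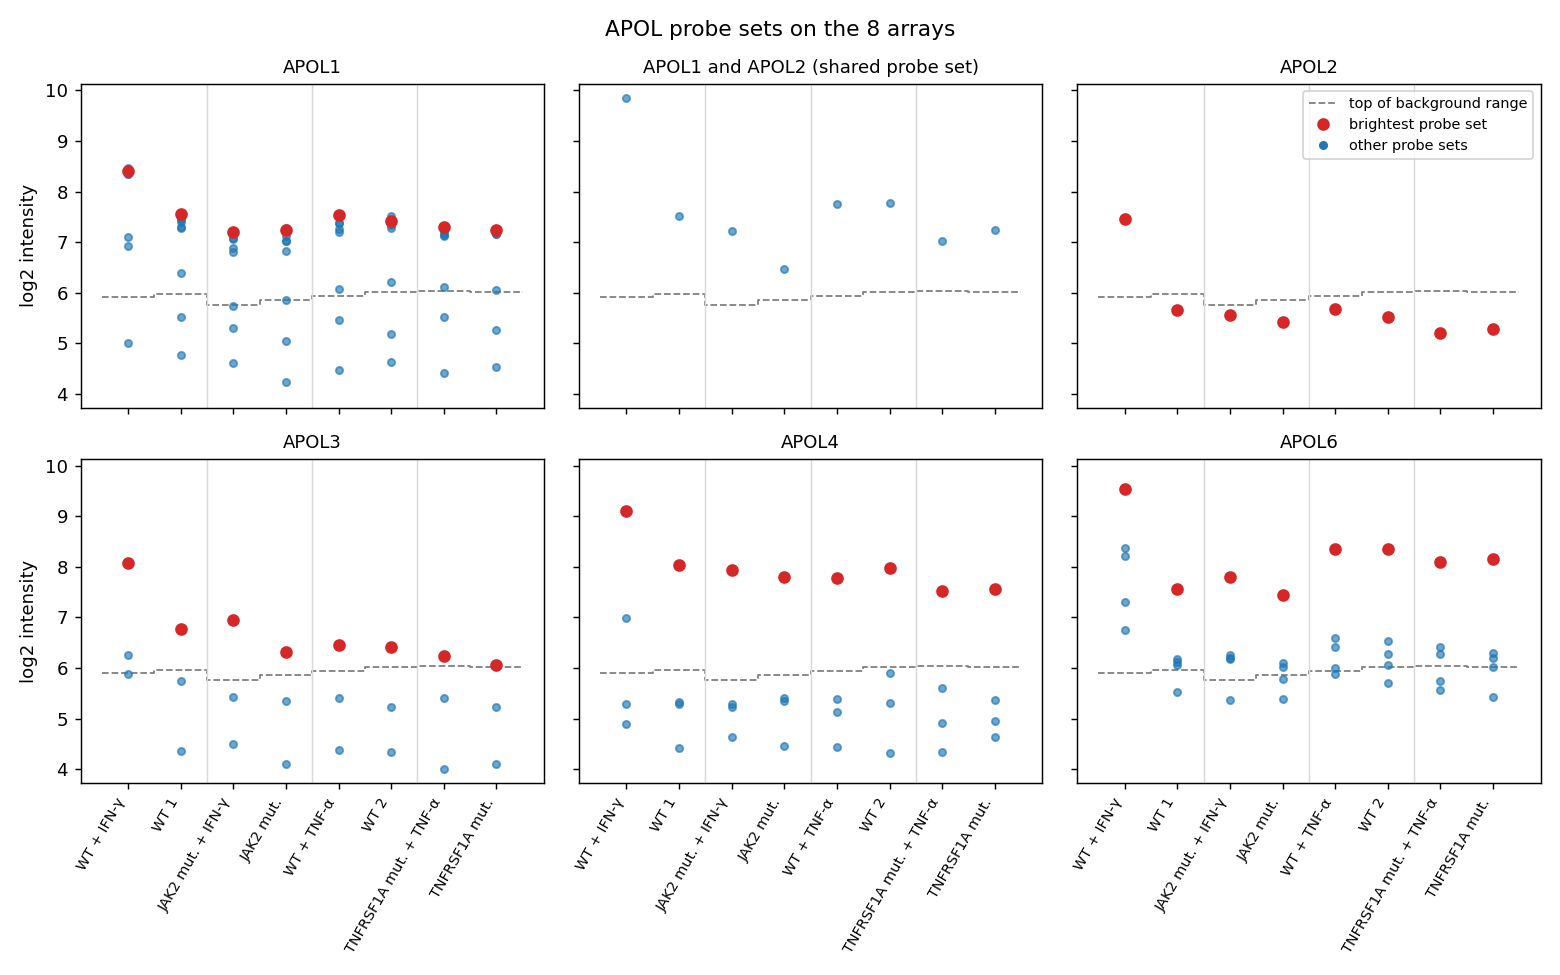
Log2 intensity (vertical axis) of every APOL probe set on each of the 8 arrays (horizontal axis), 1 panel per gene and 1 for the probe set shared by APOL1 and APOL2. Red points are the brightest probe set of a gene, blue points the others, and the dashed line is the top of the background range of each array. In every panel the WT array with IFN-gamma holds the highest point, from 7.45 for APOL2 to 9.84 for the shared probe set.

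IFN-gamma raised 4 of the 5 APOL genes in WT cells at 2-fold, APOL2, APOL3, APOL4 and APOL6, and APOL1 lay just under that size. Among all genes compared, 0.607% were raised against WT replicate 1. The 4 genes were also raised against WT replicate 2, where 1.66% of all genes were, and against both controls at once, where 0.468% were. The median difference of the 5 members was 1.30 against WT replicate 1, beside -0.02 over all genes, and 1.20 against WT replicate 2, beside 0.02 over all genes. With APOL2 left out, since only the IFN-gamma array carried it past the level filter, 3 of the other 4 genes were raised.

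APOL6, an intracellular member that has been reported to promote cell death when overexpressed, rose with IFN-gamma in WT cells against both controls. Its brightest probe set read 9.55 in WT cells with IFN-gamma and 7.55 in WT replicate 1, intensities of 748 and 188. The other arrays read 7.79 in the JAK2 mutant with IFN-gamma, 7.43 in the JAK2 mutant unstimulated, 8.36 in WT cells with TNF-alpha, 8.35 in WT replicate 2, 8.09 in the TNFRSF1A mutant with TNF-alpha and 8.15 in that mutant unstimulated. The IFN-gamma array of WT cells stood highest, and the 4 arrays of the TNF-alpha experiment stood above the other 3 of the IFN-gamma experiment. The difference was 1.99 against WT replicate 1, a 3.98-fold rise, and 1.20 against WT replicate 2, a 2.30-fold rise. It ranked 17th from the highest among the 11529 genes against WT replicate 1 and 109th against WT replicate 2. The other APOL6 probe sets rose by 1.12 to 2.31 against WT replicate 1, so all 5 were raised as measured. Among them, 11749557_x_at read 6.75 with IFN-gamma and 5.52, in the background range, in WT replicate 1. The top of that range was 5.97 on the control array, so the lower bound of its rise was under 2-fold. Against WT replicate 2, probe set 11732245_a_at, at 7.30 with IFN-gamma and 6.54 without, did not reach 2-fold.

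APOL2, reported at the endoplasmic reticulum, was measured above the background range on 1 array of 8. Its only probe set read 7.45 in WT cells with IFN-gamma and 5.65 in WT replicate 1. The other arrays read 5.55 in the JAK2 mutant with IFN-gamma, 5.41 in that mutant unstimulated, 5.67 in WT cells with TNF-alpha, 5.52 in WT replicate 2, 5.20 in the TNFRSF1A mutant with TNF-alpha and 5.28 in that mutant unstimulated. These 7 values lay within 0.47 of each other and all in the background range. The rise was therefore at least 2.80-fold against WT replicate 1 and at least 2.70-fold against WT replicate 2, with measured differences of 1.80 and 1.93.

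The probe set shared by APOL1 and APOL2 had the largest log2 difference of the 23 with IFN-gamma in WT cells against WT replicate 1. It read 9.84 in WT cells with IFN-gamma and 7.52 in WT replicate 1. The other arrays read 7.21 in the JAK2 mutant with IFN-gamma, 6.48 in that mutant unstimulated, 7.76 in WT cells with TNF-alpha, 7.77 in WT replicate 2, 7.01 in the TNFRSF1A mutant with TNF-alpha and 7.24 in that mutant unstimulated. The WT array with IFN-gamma stood 2.07 above the next highest, and the JAK2 mutant without cytokine was the lowest. The rise was 2.32 on the log2 scale against WT replicate 1 and 2.07, or 4.20-fold, against WT replicate 2. How much of it came from either gene cannot be told apart.

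APOL3 read 8.08 in WT cells with IFN-gamma and 6.78 in WT replicate 1. The other arrays read 6.95 in the JAK2 mutant with IFN-gamma, 6.31 in that mutant unstimulated, 6.45 in WT cells with TNF-alpha, 6.42 in WT replicate 2, 6.23 in the TNFRSF1A mutant with TNF-alpha and 6.06 in that mutant unstimulated. WT cells with IFN-gamma were highest and the JAK2 mutant with IFN-gamma came next. The rise was 2.46-fold against WT replicate 1 and 3.17-fold against WT replicate 2. It rests on a probe set marked _x_at, which means that its probes can bind other transcripts too. Without such probe sets, APOL3 was represented by 11749862_a_at, which read 6.25 in WT cells with IFN-gamma and 5.74, within the background range, in WT replicate 1, a difference of 0.51 that was not called. Against WT replicate 2, at 5.24 and also in the background range, the same probe set differed by 1.02, with a lower bound of 0.24. The third probe set, 11723974_a_at, read 5.89 and 4.36 on the same arrays, both in the background range.

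APOL4, whose function is little established, read 9.11 in WT cells with IFN-gamma and 8.05 in WT replicate 1. The other arrays read 7.93 in the JAK2 mutant with IFN-gamma, 7.80 in that mutant unstimulated, 7.78 in WT cells with TNF-alpha, 7.97 in WT replicate 2, 7.52 in the TNFRSF1A mutant with TNF-alpha and 7.56 in that mutant unstimulated. The 7 arrays other than WT with IFN-gamma lay within 0.53 of each other. The rise was 2.09-fold against WT replicate 1 and 2.20-fold against WT replicate 2. As the mean of its 4 probe sets the difference against WT replicate 1 was 0.80, which was not called. A second probe set, 11746175_a_at, read 6.99 in WT cells with IFN-gamma and lay in the background range on the other 7 arrays. The remaining pair stayed in the background range on all 8.

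APOL1 read 8.41 in WT cells with IFN-gamma and 7.55 in WT replicate 1. The other arrays read 7.21 in the JAK2 mutant with IFN-gamma, 7.24 in that mutant unstimulated, 7.54 in WT cells with TNF-alpha, 7.42 in WT replicate 2, 7.30 in the TNFRSF1A mutant with TNF-alpha and 7.24 in that mutant unstimulated. The WT array with IFN-gamma was the highest and the other 7 lay within 0.35 of each other. The difference of 0.86 against WT replicate 1 was 1.81-fold and that of 0.99 against WT replicate 2 was 1.99-fold, so neither was called. All 9 APOL1 probe sets were higher with IFN-gamma, by 0.25 to 1.41 with a median of 0.93, and 3 of them passed 2-fold against WT replicate 1. The 1.41 belongs to 11735997_x_at, 1 of those 3, whose control lay in the background range and whose lower bound of 0.96 was under 2-fold. The dimmest set, in the background range on all 8 arrays, had the smallest difference.

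Over all 23 probe sets, 22 were higher in WT cells with IFN-gamma than in WT replicate 1, where 43.1% of all probe sets were, and 14 were raised at 2-fold, where 0.347% were. Of the 14, 9 lay above the background range on both arrays, 4 had a control in the background range and 1 lay in it on both. Against WT replicate 2 the count was again 14, where 0.941% of all probe sets were raised, and 12 were raised against both controls, where 0.274% were. The WT array with IFN-gamma was the highest of the 8 for 22 of the 23 probe sets and for 7.61% of all probe sets. The exception was APOL4 probe set 11762322_at, which read between 5.29 and 5.61 on the 8 arrays, all in the background range.

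**Figure D2:**
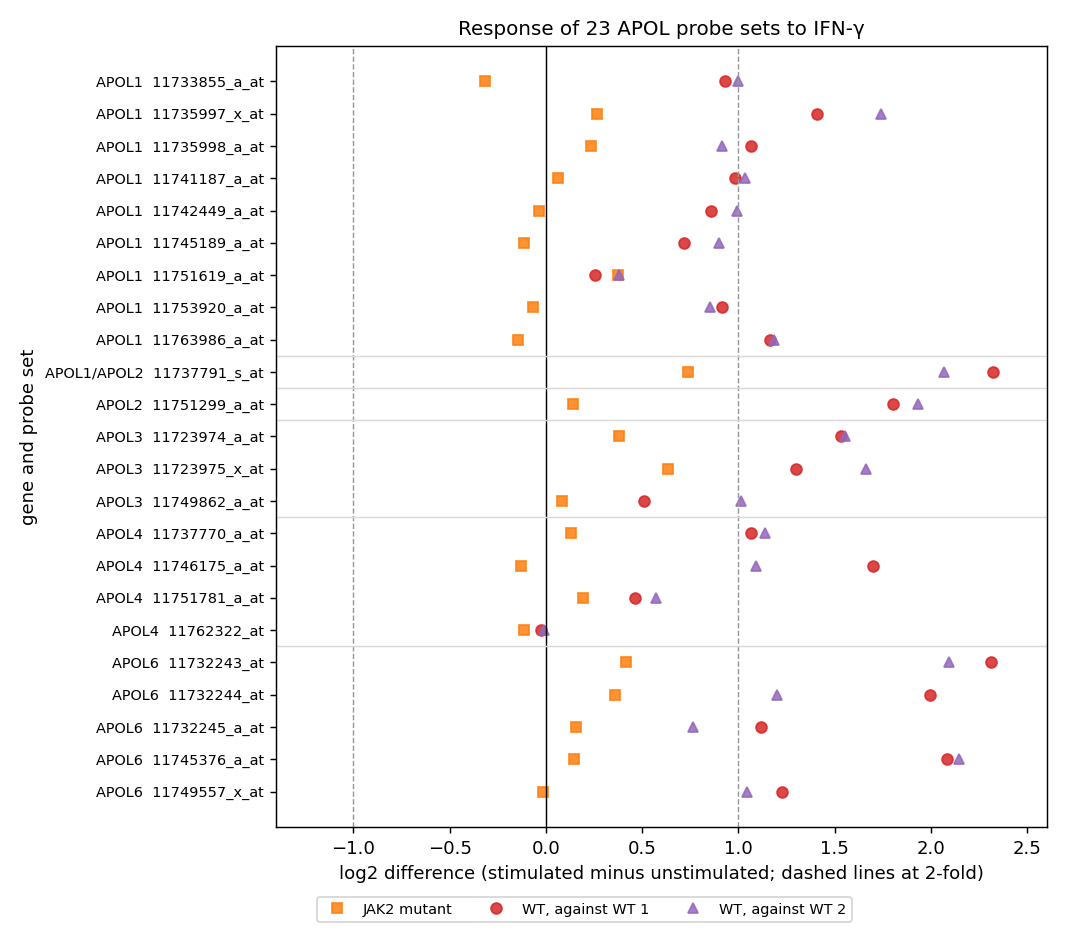
Log2 difference, IFN-gamma minus unstimulated (horizontal axis), of each of the 23 APOL probe sets (rows). Squares are the JAK2 mutant, circles WT against WT replicate 1 and triangles WT against WT replicate 2, with dashed lines at 2-fold. The largest WT value is 2.32, for the shared probe set, and the largest value of the JAK2 mutant is 0.74, for the same probe set.

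In the JAK2 mutant, 0 of the 5 APOL genes and 0 of the 23 probe sets were raised by IFN-gamma, where 0% of all genes and 0.00609% of all probe sets were. The difference was -0.04 for APOL1, 0.13 for APOL4 and 0.36 for APOL6, each within the spread of 0.38. It was 0.63 for APOL3 and 0.74 for the shared probe set, both beyond that spread and below 2-fold. That spread comes from arrays of different experiments and does not measure the spread within this one. From the highest among the 11529 genes, APOL3 ranked 11th, APOL6 139th, APOL4 1609th and APOL1 7323rd. APOL2 lay in the background range with and without the cytokine. The other 2 APOL3 probe sets lay in the background range on both JAK2 mutant arrays. As intensities, the increase in the mutant was 27.4% of that in WT cells for APOL3 and 8.69% for APOL6. The brightest APOL1 probe set showed no increase in the mutant, and 4 of the 9 APOL1 probe sets read higher with IFN-gamma there, by at most 0.37.

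Set directly against each other, JAK2 mutant cells with IFN-gamma were lower than WT cells with IFN-gamma for every member. The difference was -1.75 for APOL6, -1.20 for APOL1, -1.18 for APOL4 and -1.13 for APOL3, and -2.63 for the shared probe set. APOL2 was above the background range only in the WT cells. These are differences of single arrays, and line and cytokine act in them together. The mutant minus WT difference of the 2 responses was -1.64 for APOL6, -0.93 for APOL4, -0.89 for APOL1 and -0.67 for APOL3, and it was not tested.

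TNF-alpha raised 0 of the 5 APOL genes in WT cells, where 0.312% of all genes were raised against WT replicate 2 and 1.4% against WT replicate 1. Against WT replicate 2 the differences were 0.12 for APOL1, 0.03 for APOL3, -0.19 for APOL4 and 0.01 for APOL6, all within the spread between arrays. APOL2 lay in the background range on both arrays. Against WT replicate 1, APOL6 differed by 0.80, and WT replicate 2 itself lay 0.79 above WT replicate 1. Over the 23 probe sets, 0 were raised against WT replicate 2, where 0.16% of all probe sets were, and the values ran from -0.77 to 0.28. The -0.77 was APOL4 probe set 11746175_a_at, which lay in the background range on both arrays.

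In the TNFRSF1A mutant, TNF-alpha raised 0 of the 5 genes, where 0% of all genes were raised. The differences were 0.05 for APOL1, 0.18 for APOL3, -0.04 for APOL4 and -0.06 for APOL6, and APOL2 was in the background range on both arrays. The 23 probe sets ran from -0.31 to 0.26.

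**Figure D3:**
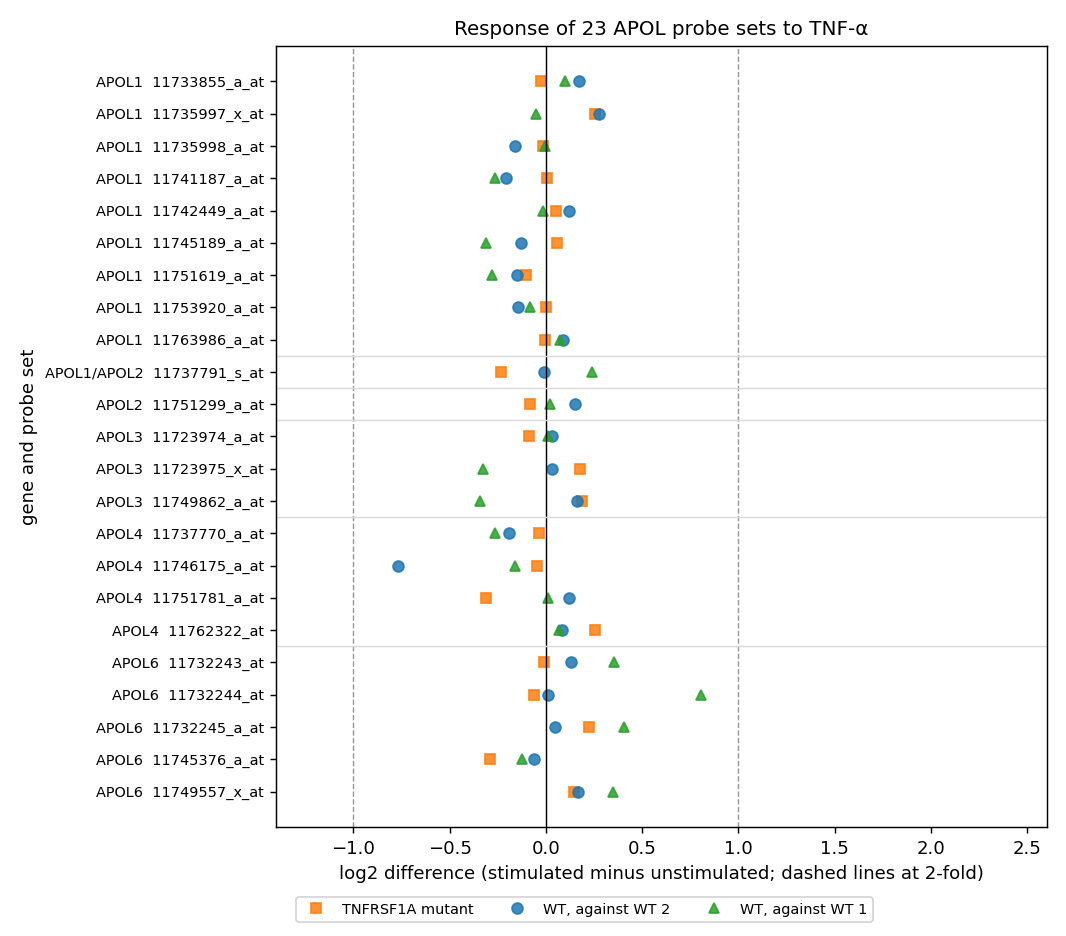
Log2 difference, TNF-alpha minus unstimulated (horizontal axis, same scale as for IFN-gamma), of each of the 23 APOL probe sets (rows). Squares are the TNFRSF1A mutant, circles WT against WT replicate 2 and triangles WT against WT replicate 1, with dashed lines at 2-fold. No point reaches a dashed line, and the farthest to the right, 0.80, is the brightest APOL6 probe set against WT replicate 1.

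Without cytokine, APOL1, APOL3, APOL4 and APOL6 read lower in the JAK2 mutant than in either WT array, and APOL2 lay in the background range on all 3 arrays. Of the 5 genes 0 were lowered at 2-fold, where 1.91% of all genes were against WT replicate 1 and 3.65% against WT replicate 2. Against WT replicate 1 the differences were -0.31 for APOL1, -0.46 for APOL3, -0.25 for APOL4 and -0.12 for APOL6. They were, against WT replicate 2, -0.18 for APOL1, -0.10 for APOL3, -0.17 for APOL4 and -0.91 for APOL6. The spread between arrays was passed by APOL3 alone against WT replicate 1 and by APOL6 alone against WT replicate 2. Of all genes compared, 44.9% read lower in the mutant than in WT replicate 1 and 44.5% than in WT replicate 2. Of the 23 probe sets, 20 read lower than in WT replicate 1, where 45.4% of all probe sets did, and 1 was lowered, the shared probe set, with -1.04 against WT replicate 1 and -1.29 against WT replicate 2, where 0.98% and 2.15% of all probe sets were lowered. The actin ratio of the unstimulated JAK2 mutant array was 5.74, against 4.41 in WT replicate 1 and 3.27 in WT replicate 2.

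In the unstimulated TNFRSF1A mutant 0 of the 5 genes were lowered or raised, where 0.607% of all genes were lowered and 0.373% were raised against WT replicate 2. The differences were -0.18 for APOL1, -0.36 for APOL3, -0.41 for APOL4 and -0.19 for APOL6, of which that of APOL4 passed the spread between arrays. Against WT replicate 1 they were -0.31 for APOL1, -0.72 for APOL3, -0.49 for APOL4 and 0.60 for APOL6, so APOL6 changed direction with the choice of control. Of the 23 probe sets, 19 read lower than in WT replicate 2, where 46.6% of all probe sets did. Against WT replicate 1 it was 18, where 50.2% of all probe sets read lower. APOL2 lay in the background range on all 3 arrays.

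Between the 2 unstimulated WT arrays 0 of the 5 genes passed 2-fold, where 0.954% of all genes were raised and 1.03% lowered in WT replicate 2. WT replicate 2 minus WT replicate 1 was -0.13 for APOL1, -0.13 for APOL2 in the background range, -0.36 for APOL3 and -0.07 for APOL4. APOL6 was the exception at 0.79, from its brightest probe set alone, since its other 4 probe sets differed by -0.06 to 0.36. The choice of WT control therefore matters most for the brightest APOL6 probe set.

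The RefSeq table of GRCh38.p14 places the members on chromosome 22 in the order APOL6, APOL3, APOL4, APOL2 and APOL1, with APOL5 and RBFOX2 between APOL6 and APOL3. Of 14 neighbouring protein-coding genes measured on the array, which include APOL5, 10 passed the level filter and 0 were raised by IFN-gamma in WT cells. APOL5 was not among the 10. Their differences against WT replicate 1 ran from -0.21 for HMOX1, which encodes a haem-degrading enzyme, to 0.15 for RBFOX2, a splicing regulator that lies inside the stretch of APOL genes. MYH9, a non-muscle myosin heavy chain and the gene next to APOL1, read 11.17 in WT cells with IFN-gamma and 11.33 in WT replicate 1. Against WT replicate 2 none was raised either, and the largest difference was 0.93 for IFT27.

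**Figure D4:**
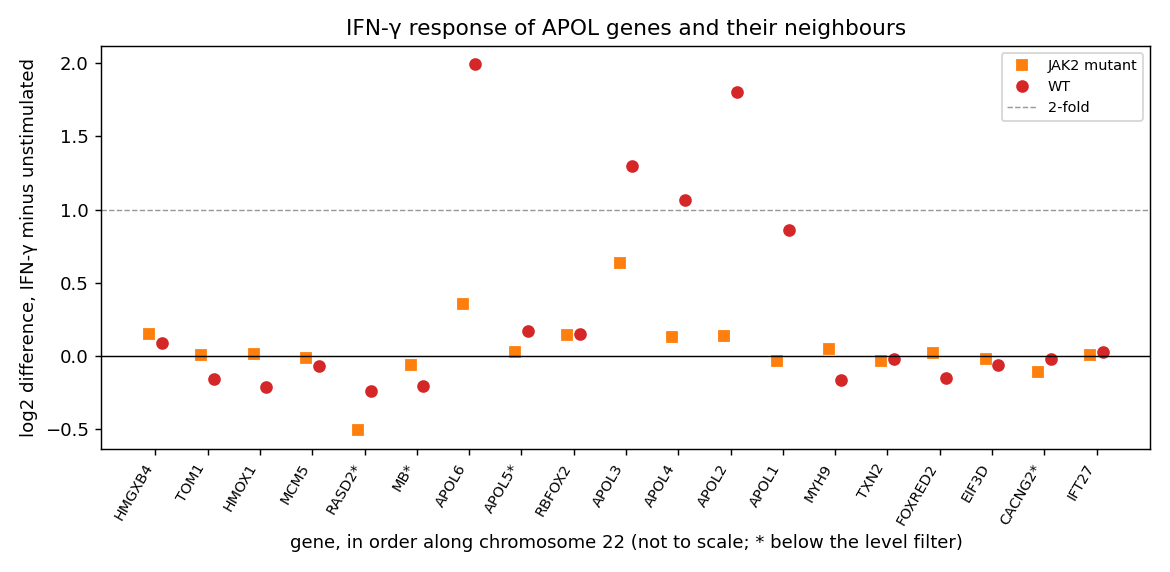
Log2 difference, IFN-gamma minus unstimulated (vertical axis), of the APOL genes and their neighbours in their order along chromosome 22 (horizontal axis, not to scale). Squares are the JAK2 mutant and circles WT against WT replicate 1, with a dashed line at 2-fold and stars on names below the level filter. The 5 APOL genes stand at 0.86 to 1.99 in WT cells while the 10 neighbours past the filter stand at -0.21 to 0.15.

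Of 17 other apolipoproteins listed, 7 passed the level filter and 0 were raised by either cytokine in WT cells, with a median IFN-gamma difference of -0.05. APOA1, the main protein of high-density lipoprotein and the partner of APOL1 in the trypanosome lytic particle, read 6.71 in WT cells with IFN-gamma and 6.76 in WT replicate 1. Of the IFN-gamma signal chain, 13 of 17 genes were compared and 4 were raised in WT cells against WT replicate 1, the transcription factors IRF1 by 2.87, IRF9 by 1.53 and IRF7 by 1.37, and the feedback inhibitor SOCS1 by 1.88. In the JAK2 mutant 0 of the 13 were raised, and IRF1 differed by 0.59. SOCS1 differed by only 0.36 against WT replicate 2.

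Of 16 other interferon-induced defence genes compared, 5 were raised in WT cells against WT replicate 1, the guanylate-binding proteins GBP1 to GBP5, which attack intracellular pathogens. GBP5 rose by 3.43, GBP3 by 3.27 and GBP1, whose control lay in the background range, by at least 2.80, beside 1.99 for APOL6. Of the 16, 6 were raised against WT replicate 2. The list's median was 0.89, beside 1.30 for the 5 APOL genes. The latter includes APOL2, which only the WT array with IFN-gamma carried past the level filter. Of the TNF-alpha signal chain, 19 of 22 genes were compared. TNF-alpha raised 6 of them in WT cells against WT replicate 2, NFKBIA by 2.78, TNFAIP3 by 2.36, NFKB1 by 1.80, NFKBIE by 1.41, RELB by 1.36 and NFKB2 by 1.05, while IFN-gamma raised 0. These rises were measured on the array on which no APOL gene was raised.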

How the data were processed

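The authors deposited 1 linear intensity per probe set and array. Per the submitters' processing notes, the tools were Affymetrix Expression Console 1.1 and its RMA method. The step back from RMA's log2 output was inferred from the values. RMA makes the arrays' distributions equal, so a shift of most genes would not be seen, and it compresses differences of dim probe sets. Precision is limited by the number of arrays.

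Log2 was taken, and probe sets were named from the platform annotation, with symbols updated through RefSeq (GRCh38.p14). Of 49395 probe sets, 44994 had 1 gene, 1832 several and 2569 none listed. The annotation's genome build is not stated in the sources, so no coordinates are printed. Tools were Python 3.11.15, numpy 2.4.6, pandas 2.3.3, statsmodels 0.14.6, R 4.3.3 and limma 3.58.1. The scripts were tested on simulated data.

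Groups came from the labels, and each comparison is a difference of 2 arrays with no p-value. The members and lists were chosen with earlier results of these data known. Named genes are all members and their probe sets, list genes past 2-fold in a WT response or otherwise the 3 largest, chromosome 22 neighbours, and for each member the 5 genes with the most similar profile. Alternatives were thresholds of 1.5-fold and 3-fold, a log2 level of 8 or no level filter, loess (span 0.3) or further quantile normalization, the mean of a gene's probe sets, probe sets without those marked _x_at, either or both WT controls, and limma with 1 residual degree of freedom. After seeing the data, bounds and a rule of both controls were added. The motif search planned for promoters was not run.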

Additional observations from a re-analysis of the deposited data

Results flagged for a closer look

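For 3 pairs of responses the mutant and WT differences had opposite signs, on single arrays, and the difference between them was not tested. For APOL1 with IFN-gamma, the mutant minus WT difference of responses was -0.89, with -0.04 in the JAK2 mutant and 0.86 in WT cells. For APOL2 with TNF-alpha it was -0.23, with all 4 values in the background range. For APOL6 with TNF-alpha it was -0.073, with -0.06 in the TNFRSF1A mutant and 0.01 in WT cells, both within the spread between arrays.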

How the results depend on the processing

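Of 210 member differences recomputed under the alternatives, 195 moved by less than the spread between arrays, 15 by more and 0 changed sign after passing 2-fold. Some of the 195 could not move. Leaving out probe sets marked _x_at could change only APOL3, and the mean of probe sets could not change APOL2. For the mutant responses to cytokine, limma returned the same difference. In the other comparisons it repeated the mean of both WT controls. In WT cells with IFN-gamma, 4 members were raised at 2-fold, 2 at 3-fold, and 0 by limma at an adjusted p of 0.05. In limma with 1 residual degree of freedom, fitted to the mean of both WT arrays, the differences of the 5 members ran from 0.92 for APOL1 to 1.87 for APOL2. That fit assumes that every single array varies as the WT pair does, and it called 1 gene of 11529. The 2 members at 3-fold in WT cells with IFN-gamma were APOL2 and APOL6, as measured against WT replicate 1. The lower bound for APOL2 there was 2.80-fold, and APOL6 rose 2.30-fold against WT replicate 2. Neither was thus shown to pass 3-fold against both controls. At 1.5-fold, 1 member, APOL3, was raised in the JAK2 mutant with IFN-gamma and 1, APOL6, in WT replicate 2 over WT replicate 1, against 0 each at 2-fold. Over the settings the IFN-gamma difference ran from 0.85 to 0.99 for APOL1, 1.80 to 1.93 for APOL2, 0.51 to 1.66 for APOL3, 0.80 to 1.14 for APOL4 and 1.20 to 2.02 for APOL6. Against WT replicate 1, APOL3 fell below 2-fold without probe sets marked _x_at and APOL4 with the mean of its probe sets. APOL2 has only a bound in all of them. No paired analysis was possible because stimulated and unstimulated groups share fewer than 2 replicate numbers. Signal over background limits APOL2 and the dim probe sets of APOL1, APOL3, APOL4 and APOL6.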

Other observations

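For each APOL gene the 5 genes with the most similar log2 profile over the 8 arrays were taken. For APOL1, PSMB8, an immunoproteasome subunit, had the highest Pearson r at 0.99, followed by GBP1, IFIT3, XAF1 and MCTP2. For APOL2, IFIT5 came first at 0.99, followed by XAF1, MCTP2, PSMB10 and PARP9. The APOL2 profile holds 1 value above the background range, that of WT cells with IFN-gamma. Without that array r for these 5 genes ran from 0.67 for PARP9 to 0.95 for MCTP2. For APOL3 the first was UBR1, a ubiquitin ligase, at 0.98, followed by SLK, IFI16, PARP9 and LAP3. For APOL4 it was ADPRS, an ADP-ribose hydrolase, at 0.98, followed by SLK, SP140L, IFIT5 and BTN3A2. SLK itself differed by 0.15 with IFN-gamma in WT cells. For APOL6 the first was REC8, a meiotic cohesin subunit, at 0.98, followed by TAPBPL, C5orf15, LOC154761 and XRN1. These values are a description over 8 arrays that share 1 normalization, the genes were the highest of 11529, and the WT array with IFN-gamma sets much of each profile. Among the 10 pairs of APOL genes, r ran from 0.67 to 0.97 over the 8 arrays and from -0.38 to 0.83 over the 7 arrays without it.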
